A study of Mus musculus with 8 samples.

Results

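Laminins, nidogens and perlecan build the sheet of matrix under every epithelium, and their genes were followed here in 4T1 cells given acetate or vehicle. The 9 genes were the laminin chain genes Lama3, Lama5, Lamb1, Lamb2, Lamb3 and Lamc1, the nidogen genes Nid1 and Nid2, and Hspg2, which encodes perlecan. They were taken by name, and no measured value entered the rule, but they were chosen with earlier results of these data known. Of the 9, 8 were rows of the table of 20189 genes, and Nid2 was not analysed here. No filter on low values was applied to the 8 beyond that of the authors, who filtered genes on how many samples express them.

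A laminin is a trimer of an alpha, a beta and a gamma chain, joined in a coiled coil inside the cell and then secreted. The trimers bind each other and the integrins and dystroglycan of the cell surface, and nidogen ties them to the collagen IV network while perlecan adds heparan sulfate chains. In breast epithelium a trimer that holds the Lama3 and Lamb3 products anchors cells through hemidesmosomes, and trimers that hold the Lama5 product with the Lamb1 or Lamb2 and Lamc1 products are found along the whole basement membrane. Carcinoma cells meet this barrier when they invade, and they also make much of it themselves.

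4T1 is a mouse mammary carcinoma cell line, here of wild-type genotype, and it forms lung metastases when injected into mice. Cells were cultured for 48 h with 5 mM acetate or with water as the vehicle, and 4 libraries were made of each group, 8 in all. The study sequenced them to learn how a larger supply of acetyl-CoA favours metastasis, and it treats the replicates as independent experiments of one cell line in culture. Each value is a normalised read count, the reads of a gene scaled by the authors to one common library total (20000001 on average over the 8 columns).

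The libraries held between 19895088 and 29305620 reads, and the 8 genes rested on 23 (Nid1) to 37729 (Lama5) reads per library. Epithelial markers were high in every library, with Epcam, Cdh1, Krt8, Krt18 and Krt19 summing to between 42130 and 59632 normalised reads in vehicle and between 44422 and 60637 in acetate, and Cdh1 and Krt19 were called higher. Of 5 endothelial markers 3 were measured, and they summed to at most 7.06, with 0 called. Of 5 leukocyte markers 3 were measured, with sums of 12.3 to 20.3 in vehicle and 27.4 to 42.8 in acetate, and Csf1r was called higher (log2 change 1.08, limma adjusted p 0.00774). Of 5 fibroblast markers 3 were measured. Their sums ran from 229 to 1503 in vehicle and from 391 to 1965 in acetate and came nearly all from Pdgfra, which rose in 4 of 4 pairs (log2 change 0.52 ± 0.06, SE, limma adjusted p 3.72e-04), while Dcn had at most 18 reads and Col6a3 at most 2. The part of these markers in the results below was not tested. In cultured cells sequenced in bulk, fewer cells that express a gene and less RNA per cell cannot be told apart.

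The expression of basement membrane genes was compared between acetate- and vehicle-treated cells within same-numbered pairs of libraries. Nid1 and Lamb2 rose with acetate, Lama3 fell, and the other 5 genes did not pass the test. The test was limma with the replicate number as a block, two-sided, on log2(value + 1), with Benjamini-Hochberg adjustment over all 20189 genes and a threshold of 0.05. Thus 3 of 8 genes were called, beside 8.64% of all genes in either direction, 5.99% higher and 2.65% lower. Among the 10094 genes with a mean above that of the median gene, where 7 of the 8 lay, 15.0% were called and 9.83% were called higher. The acetate library was higher in all 4 pairs for 3 of the 8 genes (16.7% of all genes) and lower in all 4 for 1 (11.4%). The median log2 change of the 8 was 0.07, and that of all genes was 0.02.

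The pairing decided these calls. In limma without the replicate number, 0 of the 8 genes passed, and of all genes 0 passed (0%). At an unadjusted p under 0.05 there were 0 of the 8 and 1.75% of all genes, and the adjusted p was 1.00 for each of the 8. With median-of-ratios scaling in the paired fit, 4.95% of genes were called higher and 4.07% lower, so that 54.9% of all calls were higher and not 69.3%, and the same 3 genes of the 8 were called. Without the pair of replicate 1, which stood apart from the others in most of these genes, 4 of the 8 were called, Lamc1 being the fourth. The count was 2 without replicate 2 and 1 without replicate 3 or replicate 4, and 0 were called higher in the last 2 of these fits. Calls over all genes numbered 1744 with every pair, and 1662, 617, 409 and 539 without replicates 1, 2, 3 and 4 in turn.

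**Figure D1:**
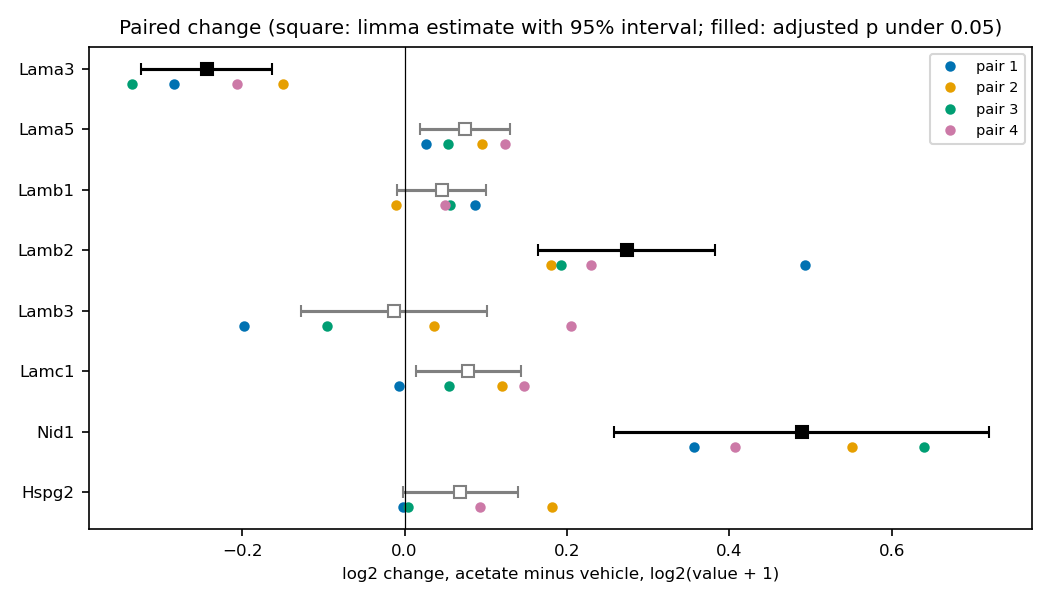
The plot gives the log2 change of each gene on the horizontal axis (acetate minus vehicle, log2(value + 1)), with a square for the limma estimate, a bar for its 95% interval and a dot for each of the 4 pairs. Filled squares mark an adjusted p under 0.05, and Lama3 lies left of 0 in all 4 pairs while Lamb2 and Nid1 lie right of it in all 4.

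Lama3 (ENSMUSG00000024421, chromosome 18, 12333819 to 12583013 on GRCm38, plus strand) encodes the alpha chain of the hemidesmosomal laminin. In vehicle replicates 1 to 4 it had 2277, 1623, 1579 and 1564 normalised reads, and in the acetate replicates 1871, 1463, 1251 and 1356. The acetate library was the lower one in every pair, yet the groups overlapped, since acetate replicate 1 exceeded vehicle replicates 2, 3 and 4. The mean went from 1761 ± 345 to 1485 ± 271 (SD, n = 4). The log2 change was -0.24 ± 0.04 (SE, limma with the block, adjusted p 0.00245), with pairs at -0.28, -0.15, -0.34 and -0.21. It also passed in each of the 4 fits that left out a pair, where the adjusted p ran from 0.00722 to 0.0455.

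Lama5 (ENSMUSG00000015647, chromosome 2, 180176373 to 180225859, minus strand) encodes the alpha chain of the widespread laminins and had the highest read count of the 8. Vehicle replicates 1 to 4 had 10786, 19826, 20231 and 24881 normalised reads, and the acetate replicates 10989, 21179, 20993 and 27117. Both libraries of replicate 1 lay far below the other 6, and the acetate library was the higher one in each pair. The log2 change was 0.07 ± 0.03 (SE, 95% interval 0.02 to 0.13) and did not pass (limma adjusted p 0.0973).

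Lamb1 (ENSMUSG00000002900, chromosome 12, 31265234 to 31329644, plus strand) encodes the common beta chain. It had 11884, 15249, 14401 and 16538 normalised reads in vehicle and 12624, 15144, 14969 and 17117 in acetate. The pairs differed little and went both ways, with acetate higher in 3 of 4. The log2 change of 0.05 ± 0.02 (SE, 95% interval -0.01 to 0.10) did not pass (limma adjusted p 0.319).

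Lamb2 (ENSMUSG00000052911, chromosome 9, 108479736 to 108490530, plus strand) encodes the alternative beta chain, known from the kidney filter and the neuromuscular junction. It had 439, 1576, 1346 and 1654 normalised reads in vehicle replicates 1 to 4 and 618, 1785, 1538 and 1939 in acetate. Acetate was higher in each pair, yet the groups overlapped. Replicate 1 was low in both, and acetate replicate 3 (1538) also lay below vehicle replicates 2 (1576) and 4 (1654). The mean went from 1254 ± 559 to 1470 ± 591 (SD, n = 4), with a log2 change of 0.27 ± 0.05 (SE, limma adjusted p 0.00637). Pair 1 moved most, by 0.49, and the other pairs moved by 0.18, 0.19 and 0.23. The call was lost without the pair of replicate 3 (adjusted p 0.0592) or replicate 4 (0.0687) and held without replicate 1, where the change was 0.20 (adjusted p 0.00524).

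Lamb3 (ENSMUSG00000026639, chromosome 1, 193207699 to 193343878, plus strand) encodes the beta chain that pairs with the Lama3 product. It had 3608, 2960, 3125 and 2305 normalised reads in vehicle and 3145, 3035, 2926 and 2656 in acetate. Replicate 1 was highest and replicate 4 lowest in both groups, and the pairs split, with acetate higher in 2 and lower in 2. The log2 change was -0.01 ± 0.05 (SE, 95% interval -0.13 to 0.10, limma adjusted p 0.929), and it was 0.049 without replicate 1 and 0.014 without replicate 3. The annotated span of Lamb3 also holds Hsd11b1 on the other strand, at a mean of 10.4 normalised reads.

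Lamc1 (ENSMUSG00000026478, chromosome 1, 153218922 to 153332786, minus strand) encodes the gamma chain that nidogen binds. It had 6159, 7679, 8149 and 9427 normalised reads in vehicle and 6129, 8344, 8466 and 10437 in acetate. Replicate 1 gave nearly equal values in both treatments, and acetate was higher in the 3 other pairs. The log2 change was 0.08 ± 0.03 (SE, 95% interval 0.01 to 0.14) and did not pass with all pairs (limma adjusted p 0.135). Without replicate 1 it was 0.11 and passed (adjusted p 0.0459).

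Hspg2 (ENSMUSG00000028763, chromosome 4, 137468769 to 137570630, plus strand) encodes perlecan. It had 7609, 10952, 12052 and 13088 normalised reads in vehicle and 7595, 12421, 12083 and 13953 in acetate. Pairs 1 and 3 were almost level, and pair 2 moved most, by 0.18. The log2 change of 0.07 ± 0.03 (SE, 95% interval -0.0015 to 0.14) did not pass (limma adjusted p 0.235).

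Nid1 (ENSMUSG00000005397, chromosome 13, 13437551 to 13512269, plus strand) encodes nidogen 1, which links laminin to collagen IV. It was the lowest of the 8 genes, with 17.6, 107, 90.5 and 130 normalised reads in vehicle and 22.8, 157, 142 and 173 in acetate. Acetate was higher in each pair, and both libraries of replicate 1 lay far below the other 6. The mean went from 86.3 ± 48.6 to 124 ± 68.4 (SD, n = 4). The log2 change was the largest of the 8, at 0.49 ± 0.11 (SE, limma adjusted p 0.0150), with pairs at 0.36, 0.55, 0.64 and 0.41. The call was lost without the pair of replicate 2 (adjusted p 0.106), 3 (0.119) or 4 (0.0944) and held without replicate 1 (0.00709).

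**Figure D2:**
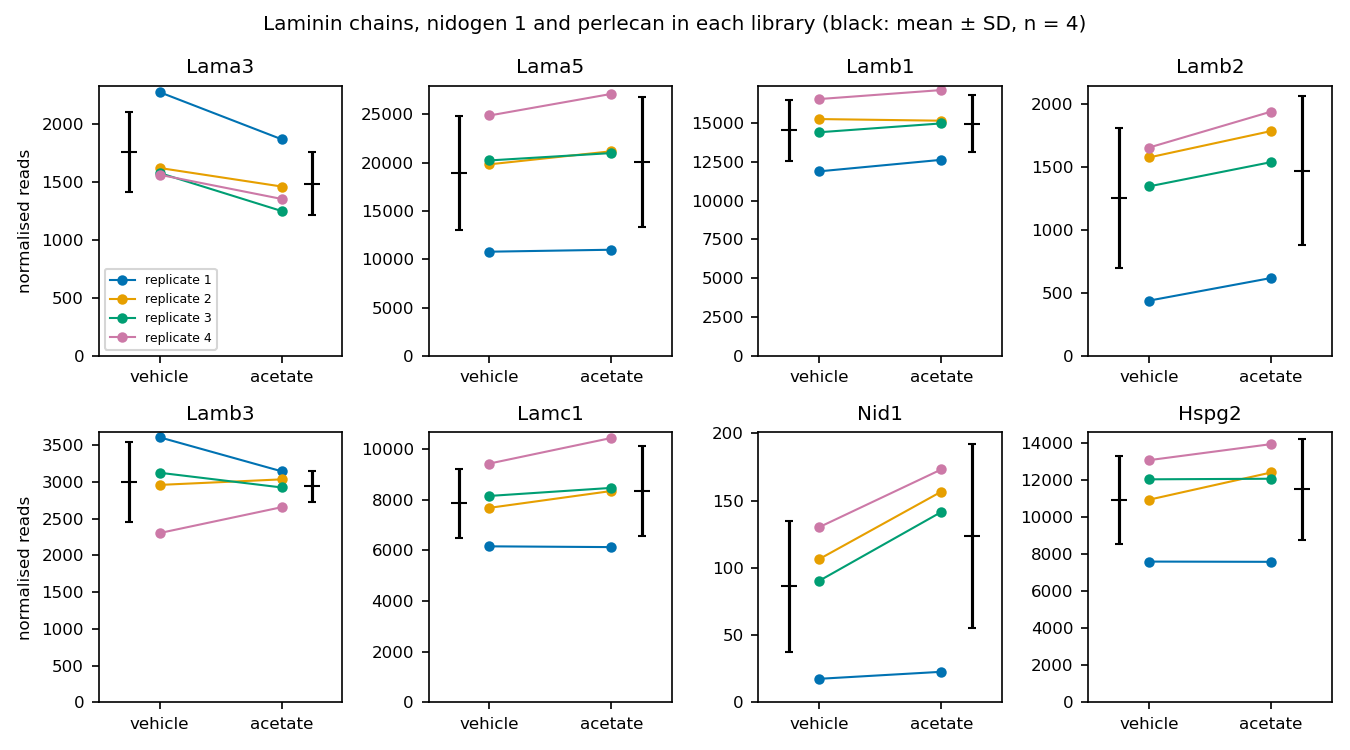
Each panel plots 1 gene, with normalised reads per library on the vertical axis from 0, a coloured line joining the vehicle and acetate libraries of each replicate, and black bars for the mean ± SD (n = 4). The lines of Nid1 and Lamb2 climb in all 4 replicates, those of Lama3 descend in all 4, and replicate 1 lies lowest in 6 of the 8 panels and highest in those of Lama3 and Lamb3.

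The sequence before the start site is shown for both genes that rose, Lamb2 and Nid1, and for the abundant Lama5 and Hspg2, which did not pass. The sequences are those of the RefSeq promoter table on GRCm38.p6, which held 6 of the 9 genes, and each is printed on the strand of the gene up to its first annotated exon. They lie at chr9:108479612-108479735 (Lamb2, plus strand), chr13:13437352-13437550 (Nid1, plus strand), chr2:180225860-180226109 (Lama5, minus strand) and chr4:137468553-137468768 (Hspg2, plus strand). Capitals mark GGGCGG (the GC box) and CAGGTG (an E-box that Zeb and Snail factors can bind), each on either strand.
Lamb2: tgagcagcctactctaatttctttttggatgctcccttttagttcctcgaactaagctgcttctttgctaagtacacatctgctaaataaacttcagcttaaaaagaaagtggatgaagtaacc
Nid1: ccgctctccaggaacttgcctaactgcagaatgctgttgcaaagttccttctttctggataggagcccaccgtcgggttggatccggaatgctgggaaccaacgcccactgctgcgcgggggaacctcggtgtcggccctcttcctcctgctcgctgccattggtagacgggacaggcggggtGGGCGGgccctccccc
Lama5: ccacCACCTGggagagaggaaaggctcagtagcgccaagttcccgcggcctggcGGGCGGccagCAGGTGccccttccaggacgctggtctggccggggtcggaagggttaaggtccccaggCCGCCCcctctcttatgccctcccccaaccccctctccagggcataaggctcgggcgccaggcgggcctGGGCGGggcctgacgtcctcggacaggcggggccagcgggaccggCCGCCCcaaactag
Hspg2: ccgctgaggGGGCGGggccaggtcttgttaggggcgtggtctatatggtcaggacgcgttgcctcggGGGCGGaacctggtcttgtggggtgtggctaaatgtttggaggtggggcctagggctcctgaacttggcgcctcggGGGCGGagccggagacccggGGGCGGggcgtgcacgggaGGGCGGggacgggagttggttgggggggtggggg

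GC boxes were present before the starts of 4 of the 6 genes. In the full window of 250 bases, Hspg2 held 5 of them, Lama5 held 4, Lamb1 held 2 and Nid1 held 1, while GGGCGG was not in the windows of Lamb2 or of either start of Lamb3. Of all 32851 promoter windows of that length, 32.7% held it. The E-box CAGGTG occurred 2 times in the Lama5 window and 1 time at the second start of Lamb3, beside 17.2% of all windows with at least 1. TGANTCA (AP-1, 6.75% of all windows), TATAAA (12.4%) and CACGTG (6.02%) were in none of the 7 windows. The Lamb2 window was the poorest in G and C, at 43.6%, and that of Lama5 the richest, at 72.4%, where the median of all windows was 52.4%. These matches are a description of letters, and the genes that rose did not share any of the motifs searched.

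How much of each chain message the cells held was compared per kilobase of the longest coding transcript in GENCODE M21, since the genes differ in length. In vehicle, Lamb1 had the highest level, at 2510 ± 340 normalised reads per kilobase (SD, n = 4), then Lama5 at 1662 ± 518, Lamc1 at 1030 ± 177, Hspg2 at 770 ± 168 and Lamb3 at 616 ± 111. Lamb2 (223 ± 99.3), Lama3 (167 ± 32.7) and Nid1 (14.2 ± 7.98) followed. The libraries of neighbours in this order overlapped within each group, except that every Lamb3 library lay above every Lamb2 library and every Lama3 library above every Nid1 library. Where they overlapped, the order still held within each library from Lamb1 to Hspg2, and it was turned in replicate 1 for Hspg2 and Lamb3 and for Lamb2 and Lama3. The order was the same in acetate, where Lamb1 had 2587 ± 318, Lama5 1762 ± 587, Lamc1 1095 ± 231, Hspg2 812 ± 193, Lamb3 604 ± 43.1, Lamb2 261 ± 105, Lama3 141 ± 25.7 and Nid1 20.3 ± 11.2 normalised reads per kilobase. Lama3 has a long form of 10.548 kb and a short form of 5.551 kb. Its level per kilobase lay between 119 and 216 over the 8 libraries with the long form and between 225 and 410 with the short one. The short-form range did not reach the lowest library of Lamb3 (474). It overlapped the range of Lamb2 (78.0 to 344), so the place of Lama3 after Lamb2 rests on the long form.

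The Lama3 and Lamb3 chains, which join in one trimer, had unequal messages, and Lamb3 lay above Lama3 in every library. With the long form of Lama3, the ratio of Lama3 to Lamb3 per kilobase was 0.273 ± 0.036 in vehicle and 0.232 ± 0.032 in acetate (SD, n = 4). The short form would give higher ratios and the same differences between treatments on the log2 scale. The ratio was lower with acetate in 4 of 4 pairs, by 0.09, 0.19, 0.24 and 0.41 on the log2 scale. Among the widespread chains, the ratio of Lama5 to Lamc1 was 1.58 ± 0.277 in vehicle and 1.57 ± 0.252 in acetate, with a mean log2 difference of 0.00 over the pairs. The ratio of Lamb2 to Lamb1 was 0.086 ± 0.032 and 0.098 ± 0.033 and was higher with acetate in 4 of 4 pairs, and the ratio of Nid1 to Lamc1 was 0.013 ± 0.007 and 0.017 ± 0.009, also higher in 4 of 4. In all, 7 such ratios were computed, chosen with the values of the genes in view. An exact sign-flip permutation test, two-sided, gave p 0.125 (0.219 adjusted over the 7) for each of the 4 ratios that moved one way in all pairs, which is the smallest p that 4 pairs allow.

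**Figure D3:**
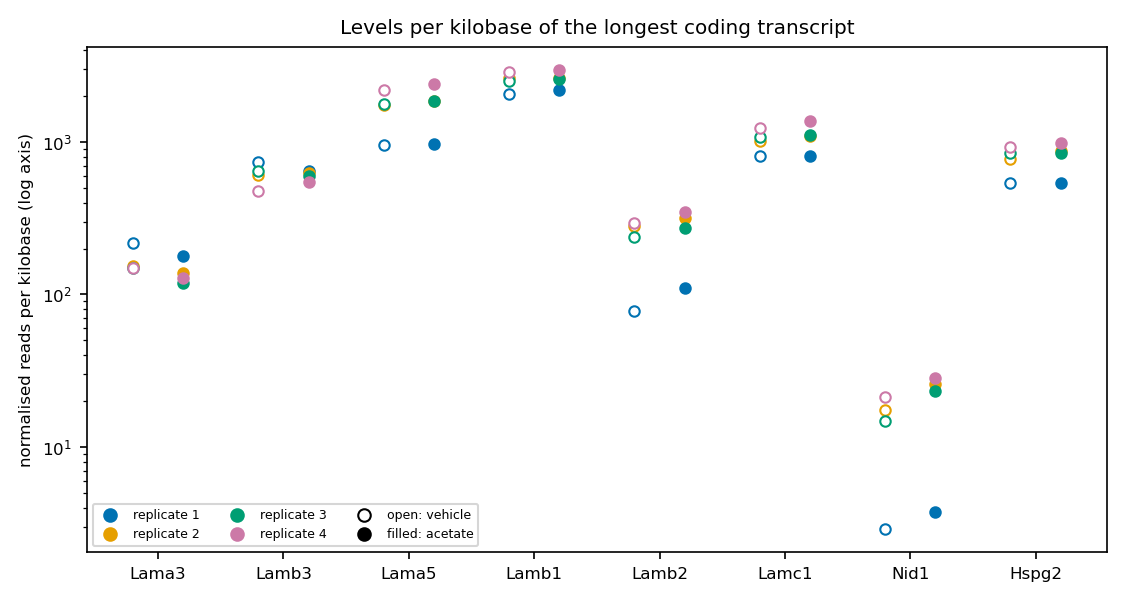
The plot gives normalised reads per kilobase on a log axis for the 8 genes, with open circles for vehicle, filled circles for acetate and a colour for each replicate. Lama3 lies below Lamb3 in every library, and Nid1 lies lowest, between 2.88 and 28.4.

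The spread between replicates was larger than the difference between treatments for every one of the 8 genes. The replicate number held between 74.8% (Lama3) and 99.2% (Lama5) of the variance of the log2 values, and treatment held between 0.13% (Lamb3) and 23.3% (Lama3). Replicate 1 stood apart. In vehicle the mean of replicates 2 to 4 exceeded replicate 1 by 6.22-fold for Nid1, 3.47-fold for Lamb2, 2.01-fold for Lama5, 1.58-fold for Hspg2, 1.37-fold for Lamc1 and 1.30-fold for Lamb1. The acetate libraries gave ratios of 6.91, 2.84, 2.10, 1.69, 1.48 and 1.25 for the same genes. Lama3 and Lamb3 went the other way, since vehicle replicate 1 was 1.43-fold and 1.29-fold above the mean of the other vehicle replicates.

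The 8 genes accordingly fell into sets by their pattern over the 8 libraries. Lama5, Lamb1, Lamb2, Lamc1, Nid1 and Hspg2 went together, with Pearson r across libraries from 0.900 (Lamb2 and Lamc1) to 0.993 (Lama5 and Hspg2). Lama3 had r from -0.912 to -0.816 with these 6 and 0.597 with Lamb3. Genes elsewhere in the table with the most similar patterns were Rnf5 and Itpr3 for Lama5 (both r 0.998), Ube2l6 and Osmr for Lamb2 (both r 0.999), Ddx58 and Sh3pxd2b for Nid1 (both r 0.998), and Snrnp200 (r 0.991) and Bclaf1 (r 0.984) for Lama3. For the others they were Gm1840 (r 0.998) and Prkd3 (r 0.997) for Lamb1, Tubgcp5 (r 0.978) and Smtn (r 0.968) for Lamb3, Gpc1 (r 0.997) and Sorcs2 (r 0.995) for Lamc1, and Socs3 (r 0.997) and Phka2 (r 0.996) for Hspg2. These values describe 8 libraries in 4 pairs, in which the replicates share most of the pattern.

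Other genes of the basement membrane were taken from 5 lists by role. Of 49 genes named, 45 were measured, and 17 of them passed, 14 higher and 3 lower, where 8.64% of all genes passed. The count was 8 without the pair of replicate 2, 7 without replicate 3 and 11 without replicate 4. In the same fits 617, 409 and 539 genes of the whole table passed, where 1744 passed with every pair. The median log2 change of the 45 was 0.12. The lists were chosen with earlier results of these data known, and without the replicate number 0 of the 45 passed in limma while 2 had an unadjusted p under 0.05.

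Among other laminin chains 3 of 4 were measured and 1 rose. Lama4, the alpha chain of vessels and muscle, rose in 4 of 4 pairs from 94.0 ± 71.3 to 146 ± 113 normalised reads (log2 change 0.55 ± 0.11, SE, limma adjusted p 0.0113), with only 13 reads in its lowest library. The call was lost without replicate 2, 3 or 4. Lama2 and Lamc3 did not pass and had at most 3 and 10 reads per library.

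Of 9 basement membrane collagen genes 8 were measured and 4 rose, each in 4 of 4 pairs. Col4a1 and Col4a2, which encode the main collagen IV chains, went from 14226 ± 609 to 15620 ± 835 and from 7981 ± 236 to 8891 ± 375 normalised reads, with log2 changes of 0.13 and 0.16 (limma adjusted p 0.0107 and 0.00364). The Col4a1 call was lost without replicate 2, 3 or 4, and Col4a2 passed without any one pair. Col4a5 rose most of these, by 0.54 ± 0.05 (SE, adjusted p 3.19e-04), from 986 ± 511 to 1383 ± 655. Col18a1 changed by 0.12 (adjusted p 0.0127), a call that was lost in DESeq2, in edgeR on 7 libraries and without replicate 2, 3 or 4. Col7a1 of the anchoring fibrils did not pass (0.10, adjusted p 0.124).

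Among 15 other basement membrane glycoproteins, 13 were measured and 5 rose. Agrn, which encodes the heparan sulfate proteoglycan agrin, went from 9756 ± 978 to 11104 ± 915 normalised reads (log2 change 0.19, limma adjusted p 0.00129). Npnt (nephronectin, an integrin ligand), Sparc (a collagen-binding protein), Ntn1 and Ntn4 (netrins) changed by 0.28, 0.22, 0.39 and 0.57 (adjusted p 7.61e-04, 0.00304, 0.00245 and 0.0169). Ntn4 lost its call in DESeq2 and without replicate 2, 3 or 4, and Sparc without replicate 3. Fbln2, the most abundant of the list, had 15178 ± 1786 and 15320 ± 1947 and did not pass (0.01, adjusted p 0.825).

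All 15 genes for laminin receptors and their partners were measured, and they were the list with calls in both directions, 4 higher and 3 lower. Itga2 (the alpha chain of a collagen and laminin receptor), Itgb4 (the beta chain of the hemidesmosomal integrin) and Plec (plectin, which ties that integrin to keratin) fell in 4 of 4 pairs, as Lama3 did. Their log2 changes were -0.31 ± 0.04, -0.21 ± 0.04 and -0.18 ± 0.04 (SE, limma adjusted p 6.88e-04, 0.00505 and 0.0196). Itgb4 lost its call without replicate 2 or 3 and Plec without replicate 1, 2 or 3, while Itga2 passed without any one pair. Itga6, the partner of Itgb4, did not pass (-0.09, limma adjusted p 0.199). Nor did Col17a1 and Dst, further hemidesmosome genes (0.09 and -0.025, adjusted p 0.838 and 0.765). Bcam, a receptor for the Lama5 product, rose most, from 322 ± 163 to 485 ± 192 normalised reads (log2 change 0.69 ± 0.10, adjusted p 0.00172), and passed without any one pair. Itga1, Dag1 (dystroglycan) and Sdc1 (syndecan) rose by 0.29, 0.10 and 0.11 (adjusted p 0.0107, 0.0239 and 0.0450). Sdc1 was lost in 10 of 13 alternatives, among them a pseudocount of 0.1, edgeR and DESeq2, and Dag1 in 8 of 13, and with median-of-ratios scaling neither passed (adjusted p 0.0979 and 0.0652). Itga1 was lost in DESeq2, in edgeR on 7 libraries and without replicate 2 or 3. Itga3, the most abundant receptor gene, had 43794 ± 6062 and 41376 ± 4555 and did not pass (-0.08, adjusted p 0.125).

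Of 6 genes for enzymes that process or degrade basement membrane, 6 were measured and 0 passed in limma with the block, as 0 had an unadjusted p under 0.05 without it. Mmp9 was the most abundant, at 15260 ± 7039 and 14189 ± 6004 normalised reads (log2 change -0.09, adjusted p 0.273). Bmp1, which trims laminin chains after secretion, had 9018 ± 2183 and 9084 ± 2535 (0.00, adjusted p 0.989).

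**Figure D4:**
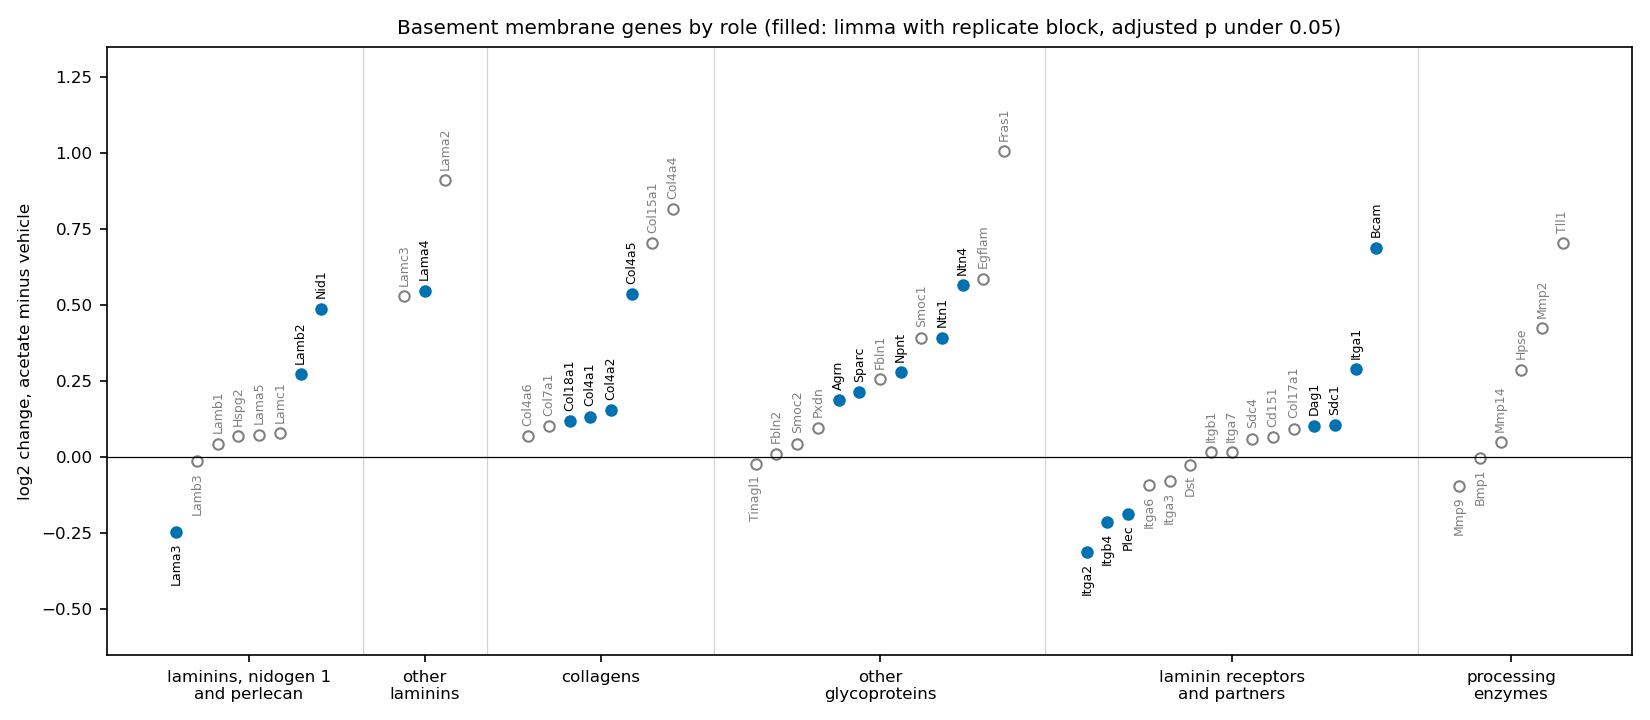
The plot gives the log2 change (acetate minus vehicle) of every measured gene by role, each list in order of its values, with filled circles for a limma adjusted p under 0.05 in the paired fit. In the laminin, nidogen and perlecan group Lama3 lies at -0.24 and Nid1 at 0.49, and Itga2, Itgb4 and Plec are the filled circles below 0 among the receptors.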

How the data were processed

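Poly-A RNA of 4 vehicle and 4 acetate libraries of 4T1 cells was sequenced. Per the labels and the methods of the study, alignment was to GRCm38 (mm10) transcripts and gene counts came from STAR (the submitters' processing notes also name HTSeq). The authors then scaled the libraries and filtered genes on how many samples express them, and every row was above 0 in at least 4 libraries. The deposited values are a normalised signal, reads scaled to a common library total (mean column sum 20000001). Columns not used numbered 0. Whether counting used strand is not given in the sources used here. Nid2 and 4 genes of the other lists (Lama1, Col4a3, Hmcn1 and Frem2) were not analysed here, and 1 further gene, not counted in those lists, is not reported here.

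Identifiers were matched to GENCODE M21 symbols (20004 of 20189). The values were tested with limma 3.58.1 in R 4.3.3 (trend, two-sided, pseudocount 1, all genes, Benjamini-Hochberg, threshold 0.05) and a block for the replicate number. The labels give both libraries of a number one code. Over the 18188 genes with a mean above 1, the deviations of same-numbered libraries from the group means correlated at 0.81, 0.27, 0.20 and 0.69 for replicates 1 to 4. Libraries with different numbers were not correlated for comparison, so these values alone do not test the pairing. In each library the values were whole multiples (within 0.02) of the value of 1 read for at least 99.995% of genes, so edgeR 4.0.16 and DESeq2 1.42.0 were run on recovered reads as alternatives, edgeR also without vehicle replicate 3, where 1 read was worth 1.005 units. The fits were tested on simulated data. Coordinates are GENCODE gene spans counted from 1. Levels per kilobase used the longest coding transcript. Other alternatives were pseudocounts of 0.1 and 5, a mean of at least 10, median-of-ratios scaling, no block, and leaving out each pair.

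All 8 measured genes were named, with every called gene of the 5 other lists, the most abundant gene of each list that did not pass, and the 2 genes most like each member among those with a mean above the median gene. A few further genes of the lists were named after their values were seen. The genes and lists were chosen with earlier results of these data known.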

Additional observations from a re-analysis of the deposited data

Results flagged for a closer look

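Of 16 sets of 4 libraries tested, 1 had a library far from the rest, where chance flags about 5% of such sets. Lama3 had 2277 normalised reads in vehicle replicate 1 against 1564 to 1623 in the other vehicle libraries, a gap of 0.918 of the range of the group. The acetate library of replicate 1 was also the highest of its group, at 1871, with a gap of 0.659. Without the pair of replicate 1 the log2 change of Lama3 was -0.23 (limma with the block, adjusted p 0.00722).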

How the results depend on the processing

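Lama3, Lamb2 and Nid1 kept their direction under all 13 alternatives run and passed under both pseudocounts, the filter, median-of-ratios scaling, edgeR and DESeq2. Without the replicate block, 0 genes were called over the table, 0 of the 8 and 0 of the 45 others, and the same counts of 0 came with no replicate block and without replicate 1, a fit added after seeing the data, in which Lama3 and Nid1 had unadjusted p-values of 0.0171 and 0.0133. Fits that left out a pair (n = 3 pairs) called 409 to 1662 genes (331 to 1103 higher, 78 to 559 lower), 1 to 4 of the 8 (0 to 3 higher, 1 lower in each) and 7 to 16 of the 45 (6 to 14 higher, 1 to 3 lower). The log2 change of Lamb3 ran from -0.086 to 0.049 when a pair was left out. It was reversed to 0.049 without replicate 1, with or without the block, and to 0.014 without replicate 3, and it passed in none of these. The cause of these shifts was not tested. Lower calls over the table numbered 821 with median-of-ratios scaling and 1086 in edgeR, which called 5 of the 45 others lower. DESeq2 called 1126 genes, 653 of them higher, and 9 of the 45 others higher. Nid1 had as few as 23 reads in a library, and whether depth limited any call was not tested.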
